A study of Mus musculus with 30 samples.

Results

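Mitochondrial ribosomal protein transcripts were examined in hematopoietic stem cells (HSCs) and in multipotent progenitors (MPPs), which arise from them, after mice had received MTP10-HDL, a nanobiologic built on high-density lipoprotein that carries a muramyl tripeptide sensed by Nod2. Members are the protein-coding genes of both count tables whose symbol begins with Mrpl or Mrps and a number, which gave 78 of 55471 genes (21933 of them protein-coding). Of these, 49 are named for the large subunit and 29 for the small subunit. The choice used names and no measured value. Another 5 rows of the same naming are pseudogenes (3 of Mrps36, 1 of Mrpl23 and 1 of Mrpl48) and were left out, and reads that their parent genes share with these copies make those genes' counts uncertain.

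Groups were 6 HSC samples from mice given MTP10-HDL and 7 from mice given phosphate-buffered saline (PBS), and 3 MPP samples after MTP10-HDL and 2 after PBS. All mice were C57BL/6, with no genetic change named, and each RNA sample was pooled from 4 animals, so that p-values measure the spread between pools. MPP donors given MTP10-HDL had 3 injections within 5 days and were killed a day later. From MPP donors, lineage-negative marrow cells of femur and tibia were sorted by flow cytometry. The labels give no schedule for the PBS MPP samples. For the HSC RNA samples the schedule, and for all mice the age, is not given in the sources used here. Another 12 samples of chromatin accessibility were not analysed here.

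Mitochondria keep their own ribosome, which translates the few membrane proteins of the respiratory chain that mitochondrial DNA encodes. Its ribosomal RNAs come from mitochondrial DNA, whereas every protein subunit is encoded in the nucleus, made in the cytosol and imported. Some subunits descend from bacterial ribosomal proteins and others are found in mitochondrial ribosomes alone. By textbook assignment 47 members have a bacterial counterpart and 31 do not. HSCs are known for low mitochondrial activity in the steady state, and loss of respiration is known to impair their differentiation.

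Promoters of these genes are often described as sharing sites for ubiquitous factors, so windows of 300 bases around the listed starts (250 before, 50 after) were searched on both strands. RefSeq (GRCm38.p6) gave 75 windows for 69 of the 78 members, and 32851 windows over all genes. The ETS motif CCGGAAG, the core to which GABP binds, was in 34.7% of member windows, against 8.86% of all windows. The YY1 motif AAGATGGCG was in 10.7% of member windows and 1.4% of all windows. The palindrome CGCATGCG of NRF1 was in 9.3% of member windows and 1.87% of all windows, and the E-box CACGTG in 9.3% and 7.15%. The E-box windows include overlapping windows of Mrpl2, so that 7 windows stand for 5 of 69 members. The end of CCGGAAG and the start of AAGATGGCG have the letters AAG in common, so that matches to these can overlap. Member windows were also richer in G and C, with a median of 58.7% against 52.7%, which moves with the shares of GC-rich motifs, and its part in them was not tested.

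Shown here are stretches up to the start of 4 members on which the results below turn or which carry a match, 5′ to 3′ on the gene's strand, with the match in capitals. Mrps27 (chr13:99344666-99344766, plus strand) and Mrps22 (chr9:98601680-98601799, minus strand) each hold an ETS match, which reads as the reverse complement in Mrps27. Mrpl17 (chr7:105811088-105811207, minus strand) holds the NRF1 palindrome, and Mrpl55 (chr11:59202366-59202485, plus strand) holds none of the 4 motifs in the stretch shown.
Mrps27: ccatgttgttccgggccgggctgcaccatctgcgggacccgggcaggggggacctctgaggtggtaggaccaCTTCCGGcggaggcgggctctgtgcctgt
Mrps22: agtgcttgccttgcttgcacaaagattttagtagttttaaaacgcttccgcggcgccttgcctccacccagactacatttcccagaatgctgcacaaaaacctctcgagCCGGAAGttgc
Mrpl17: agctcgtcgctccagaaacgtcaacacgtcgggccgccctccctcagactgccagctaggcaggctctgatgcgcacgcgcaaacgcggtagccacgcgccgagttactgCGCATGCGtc
Mrpl55: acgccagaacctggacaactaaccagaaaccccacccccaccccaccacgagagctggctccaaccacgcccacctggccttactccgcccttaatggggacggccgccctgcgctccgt

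Libraries held 5467455 to 7641976 counts in MTP10-HDL HSCs and 4064155 to 7879858 in PBS HSCs. Of these, 8562 to 14855 fell on members in MTP10-HDL HSCs and 5502 to 15268 in PBS HSCs. MPP libraries held 17555267 to 32769369 counts after MTP10-HDL and 11252479 to 14691375 after PBS, with 54201 to 144097 on members after MTP10-HDL and 34612 to 37540 after PBS. Because HSC and MPP libraries were built with other kits, levels are set side by side within each cell type, as CPM (counts relative to the library total after TMM scaling). CPM are not corrected for transcript length, and levels of different genes are therefore not ranked. The stem cell receptor gene Slamf1 averaged 42.9 CPM in MTP10-HDL HSCs and 35.4 CPM in PBS HSCs, and 1.03 CPM in MTP10-HDL MPPs and 2.00 CPM in PBS MPPs. Flt3, a receptor that marks MPPs, averaged 873 CPM in MTP10-HDL MPPs and 710 CPM in PBS MPPs, and 130 CPM in MTP10-HDL HSCs and 128 CPM in PBS HSCs.

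Markers of other cells differed between the treatments. In HSCs, 9 of 9 erythroblast markers tested were lower after MTP10-HDL (6 at an unadjusted p under 0.05 by edgeR, as 4.47% of all genes were), with summed levels of 83.4 to 228 CPM in MTP10-HDL libraries and 220 to 469 CPM in PBS libraries. All 7 B cell markers tested were lower too, with sums of 39.1 to 95.6 CPM in MTP10-HDL libraries and 36.3 to 390 CPM in PBS libraries. All 9 markers of mature neutrophils were higher (median log2 fold change 0.87, 0 at an unadjusted p under 0.05 by edgeR), with sums of 582 to 5453 CPM in MTP10-HDL libraries and 95.0 to 3671 CPM in PBS libraries. Monocyte and macrophage markers were higher for 7 of 9 genes, with sums of 152 to 2447 CPM in MTP10-HDL libraries and 123 to 1838 CPM in PBS libraries. In MPPs, 8 of 9 erythroblast markers were lower, with sums of 21.4 to 44.2 CPM in MTP10-HDL libraries and 66.3 and 109.5 CPM in PBS libraries, and 10 of 11 HSC identity genes were lower, with sums of 970 to 1202 CPM after MTP10-HDL and 1560 and 1740 CPM after PBS. Neutrophil markers were higher for 6 of 9 genes in MPPs, and monocyte and macrophage markers for 3 of 9. Immunoglobulin genes took 2.76% to 4.26% of MTP10-HDL MPP counts and 6.20% and 12.5% of PBS MPP counts. B cell markers in MPPs went both ways, with 4 of 8 higher and 4 lower (median log2 fold change -0.06). No marker of these lists was at 0 in both groups of a cell type. In pooled sorted cells, fewer cells of a type and less RNA per cell cannot be told apart, and the part of these markers in the results below was not tested.

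In HSCs, mitochondrial ribosomal protein transcripts were mostly slightly higher after MTP10-HDL, and no member passed the test. Of 75 members tested, 59 (78.7%) had a fold change above 0, against 47.7% of all 16631 genes tested. The median log2 fold change (MTP10-HDL over PBS) was 0.19, with quartiles of 0.05 and 0.30, against -0.02 over all genes. By edgeR's quasi-likelihood test 0 members passed a false discovery rate of 0.05, where 0% of all genes passed, and the smallest adjusted p was 0.409. At an unadjusted p under 0.05 edgeR found 1 member higher (1.33%, against 4.36% of all genes) and 0 lower (against 4.47%), so that the share was below the background. DESeq2 also called 0 members, with 108 genes called over all, and limma voom called 0 members and 0 genes over all. Among genes of at least 10 CPM, a choice added after seeing the data, the median was 0.19 for members and 0.06 for all genes, so that the gap narrowed to 0.135 from 0.211. No member had all MTP10-HDL libraries above all PBS libraries, as 0.174% of genes did.

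Medians of the subunits lay close together. Large-subunit members had a median of 0.16 with 38 of 48 higher, and small-subunit members 0.21 with 21 of 27 higher. Members with a bacterial counterpart had a median of 0.21 (40 of 47 higher), and those without had 0.14 (19 of 28 higher).

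Mrps27, a small-subunit protein of the pentatricopeptide repeat kind that has no bacterial counterpart, had the smallest p in HSCs. Its levels in MTP10-HDL libraries were 13.5 at the lowest, 16.9 at the median and 23.6 CPM at the highest, against 5.96, 11.2 and 15.6 CPM in PBS libraries. All 6 MTP10-HDL libraries lay above the PBS median, and the groups overlapped in a narrow range. The means were 17.3 ± 3.65 CPM (SD, n = 6) after MTP10-HDL and 10.5 ± 3.11 CPM (n = 7) after PBS, a log2 fold change of 0.72 (SE 0.24). Its unadjusted p was 0.0076 and its adjusted p 0.409 in edgeR's quasi-likelihood test. The gene lies at chr13:99344767-99415562, directly after the promoter stretch printed above.

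Next in order of p came 4 members of the large subunit. Mrpl33, a short protein with a bacterial counterpart, ranged over 41.0, 49.1 and 58.6 CPM (lowest, median, highest) in MTP10-HDL libraries and 30.7, 38.8 and 49.1 CPM in PBS libraries. Its log2 fold change was 0.31 (SE 0.15), with all 6 MTP10-HDL libraries above the PBS median and overlapping groups. Mrpl44, whose fold resembles ribonuclease III, had 15.2, 20.4 and 24.0 CPM after MTP10-HDL and 11.2, 14.1 and 21.3 CPM after PBS, a log2 fold change of 0.41 (SE 0.21). Mrpl23, which lies at the exit of the nascent peptide tunnel, had 4.28, 7.19 and 11.5 CPM after MTP10-HDL and 2.64, 3.73 and 8.60 CPM after PBS, a log2 fold change of 0.68 (SE 0.36). Mrpl13 had a log2 fold change of 0.36 (SE 0.20), or 0.22 without MTP10-HDL 2, with 5 of 6 MTP10-HDL libraries above the PBS median. For all 4 the groups overlapped, and their adjusted p by edgeR was 0.569 to 0.589.

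The 5 members of smallest p among the 16 that were lower in HSCs were all within the spread of the libraries. Mrps33, a small-subunit protein, averaged 5.08 ± 1.54 CPM (SD, n = 6) after MTP10-HDL and 6.38 ± 2.24 CPM (n = 7) after PBS, a log2 fold change of -0.33 (SE 0.33), or -0.15 without PBS 4. Mrpl19, Mrps26, Mrpl57 and Mrpl9 had log2 fold changes of -0.13, -0.16, -0.10 and -0.11, each smaller than its SE. Each of these 4 changed sign when 1 library was left out, with Mrpl19 at 0.04, Mrps26 at 0.04 and Mrpl57 at 0.01 without PBS 4, Mrpl9 at 0.06 and Mrps26 at 0.01 without PBS 1, and Mrpl9 at 0.01 without MTP10-HDL 3.

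Libraries of a group also differed in the level of members as a whole. A score, the mean log2 CPM over members after each gene was centred within its cell type, was -0.13, 0.14, 0.07, 0.28, 0.13 and 0.17 in MTP10-HDL HSC libraries 1 to 6, and 0.21, 0.02, -0.25, 0.13, -0.49, -0.08 and -0.19 in PBS libraries 1 to 7. The groups overlapped, since PBS 1 lay above 5 of the 6 MTP10-HDL libraries and MTP10-HDL 1 below 4 of the 7 PBS libraries. PBS 5 held the lowest value of all 13 libraries for 25 of 75 members. Without PBS 5 the median log2 fold change was 0.12 with 54 members higher, and without PBS 5 and 7, a choice made after seeing the data, 0.09 with 48 higher. PBS 5 and PBS 7 also had the fewest counts of the 13 libraries, at 4215378 and 4064155. The part of depth in their scores was not tested. Leaving out 1 library at a time gave 1 to 5 members at an unadjusted p under 0.05 (edgeR). The count was 5 without PBS 1 and without PBS 4, 4 without MTP10-HDL 1 and without MTP10-HDL 3, and 2 or 3 without MTP10-HDL 2, 5 or 6 or PBS 2, 5 or 6. The highest of these shares, 6.67% of members, stood beside 6.19% of all genes without PBS 1 and 5.65% without PBS 4, and so was near the background.

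HSC libraries also differ in technical ways that cut across the treatments, namely in detected genes and in ribosomal RNA share. The score was higher after MTP10-HDL by 0.203 over all libraries, against a pooled SD of 0.201. Among the 4 libraries with few detected genes the difference was -0.0668, among the 4 with high ribosomal RNA 0.187, and among the other 5 libraries 0.407. These differences lay on both sides of 0.

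**Figure D1:**
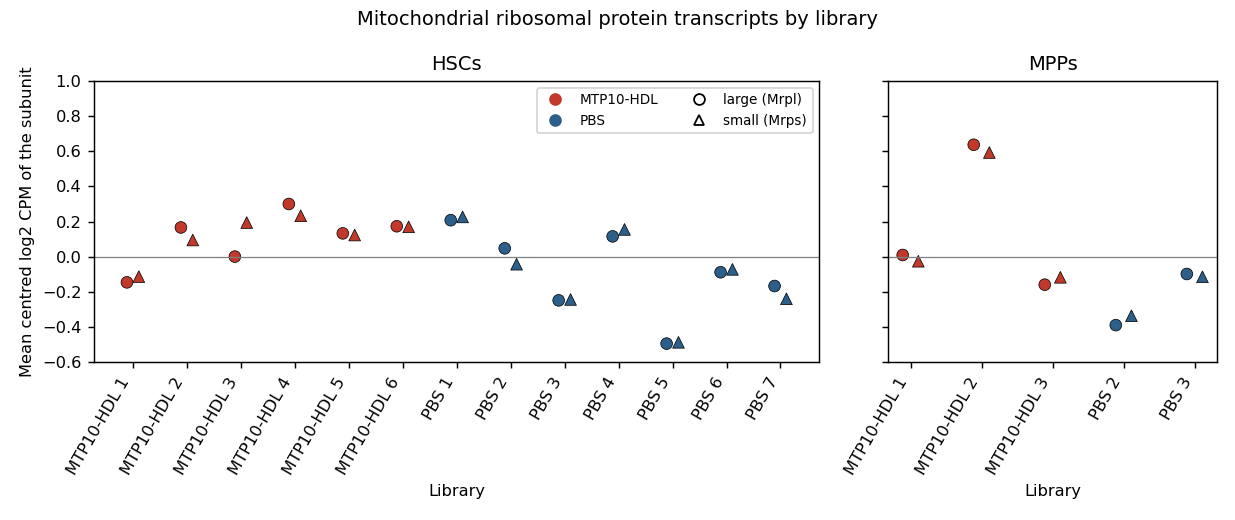
Mean log2 CPM of large-subunit (circles) and small-subunit (triangles) members in every library, each gene centred within its cell type; MTP10-HDL libraries are red and PBS libraries blue, and each point is 1 library. In HSCs the groups overlap between -0.13 and 0.21 of the score over both subunits, and in MPPs library MTP10-HDL 2 stands at 0.62 while the other 4 lie between -0.37 and 0.00.

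In MPPs nearly all members were higher after MTP10-HDL, with about 0.41 on the log2 scale at the median, and again no member passed the test. Of 77 members tested, 74 (96.1%) had a fold change above 0, against 52% of all 15449 genes tested, and the median log2 fold change was 0.41 (quartiles 0.30 and 0.61) against 0.02 over all genes. By edgeR 0 members passed a false discovery rate of 0.05, where 0% of all genes passed, with a smallest adjusted p of 0.559. At an unadjusted p under 0.05 edgeR found 10 members higher (13%, against 2.17% of all genes) and 0 lower (against 4.06%). DESeq2 called 0 members, with 163 genes called over all, and limma voom called 0 members and 0 genes over all. For 30 of the 77 members (39%) all 3 MTP10-HDL libraries lay above both PBS libraries, against 12% of all genes.

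Large-subunit members had a median of 0.43 with 47 of 48 higher, and small-subunit members 0.41 with 27 of 29 higher. Of the 10 members at an unadjusted p under 0.05, 4 were of the large subunit and 6 of the small, and 5 had a bacterial counterpart. The exceptions in direction were Mrps10, Mrpl23 and Mrps36.

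**Figure D2:**
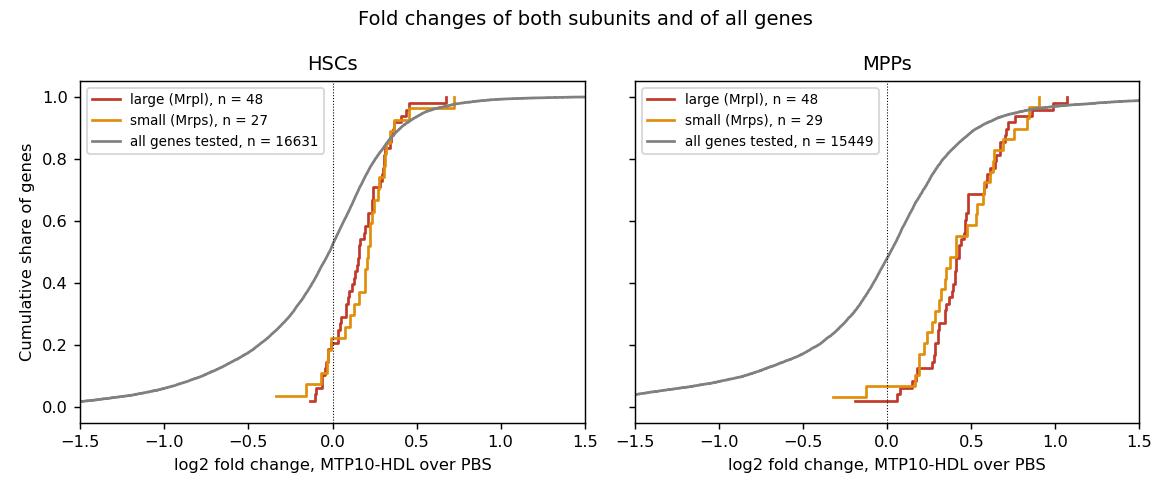
Cumulative share of genes (vertical axis) up to each log2 fold change, MTP10-HDL over PBS (horizontal axis), for large-subunit members, small-subunit members and all genes tested in HSCs and MPPs; the axis is limited to -1.5 to 1.5. Both member curves lie right of the all-gene curve over most of their range, with medians of 0.16 and 0.21 in HSCs and 0.43 and 0.41 in MPPs, against -0.02 and 0.02 for all genes.

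Mrpl55, a large-subunit protein without a bacterial counterpart, had the smallest p in MPPs. MTP10-HDL libraries 1, 2 and 3 held 20.1, 28.0 and 20.1 CPM, against 11.4 and 11.6 CPM in PBS libraries 2 and 3. The groups did not overlap, and the PBS libraries were nearly equal. The log2 fold change was 0.98 (SE 0.27), with an unadjusted p of 0.0070 and an adjusted p of 0.559 by edgeR's quasi-likelihood test. In HSCs the same gene (chr11:59202486-59206138) averaged 5.13 ± 3.69 CPM (SD, n = 6) after MTP10-HDL and 5.26 ± 2.92 CPM (n = 7) after PBS, with a log2 fold change of -0.04 (SE 0.51).

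Mrpl14, a conserved protein on the face of the large subunit that meets the small subunit, had the largest fold change of the members. It stood at 17.6, 33.5 and 18.2 CPM in the MTP10-HDL libraries and at 11.8 and 10.2 CPM in the PBS libraries, a log2 fold change of 1.07 (SE 0.35). MTP10-HDL 2 was well above the other 4 libraries, and leaving it out gave 0.70 on the log2 scale. The assembly factor Malsu1, which binds this protein on the maturing large subunit, averaged 31.2 ± 18.5 CPM (SD, n = 3) after MTP10-HDL and 15.8 ± 3.03 CPM (n = 2) after PBS, a log2 fold change of 0.98 (SE 0.46) that was 0.38 without MTP10-HDL 2.

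Among small-subunit members, Mrps15, a conserved protein that binds the ribosomal RNA, held 72.2, 104.5 and 72.0 CPM after MTP10-HDL and 42.9 and 55.6 CPM after PBS (log2 fold change 0.75, SE 0.26). Mrps31, which mitochondria alone have, held 29.7, 37.9 and 36.5 CPM after MTP10-HDL and 22.5 and 24.0 CPM after PBS (0.58, SE 0.22). Mrps22, another such protein, held 31.7, 39.8 and 35.3 CPM after MTP10-HDL and 21.8 and 26.2 CPM after PBS (0.57, SE 0.22). In each of these 3 members the groups did not overlap, and adjusted p by edgeR was 0.717 to 0.770. The other members at an unadjusted p under 0.05 by edgeR had log2 fold changes of 0.63 (Mrps7), 0.90 (Mrps25), 0.76 (Mrpl12, of the stalk that recruits translation factors), 0.59 (Mrpl45, which sits near the inner membrane) and 0.83 (Mrps18c).

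The 3 members that were lower had values within the spread. Mrps10 held 36.4, 34.6 and 30.1 CPM in the MTP10-HDL libraries and 36.0 and 37.7 CPM in the PBS libraries, a log2 fold change of -0.13 (SE 0.20). Mrpl23 held 8.28, 14.1 and 9.74 CPM after MTP10-HDL and 13.3 and 11.1 CPM after PBS (-0.19, SE 0.33), whereas it was among the higher members in HSCs. Mrps36 had few counts, with 1.47, 3.62 and 2.26 CPM after MTP10-HDL and 2.52 and 3.63 CPM after PBS (-0.32, SE 0.59). The groups overlapped for all 3. Leaving out single libraries moved them to between -0.19 and -0.05, between -0.44 and -0.04, and between -0.72 and -0.04.

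**Figure D3:**
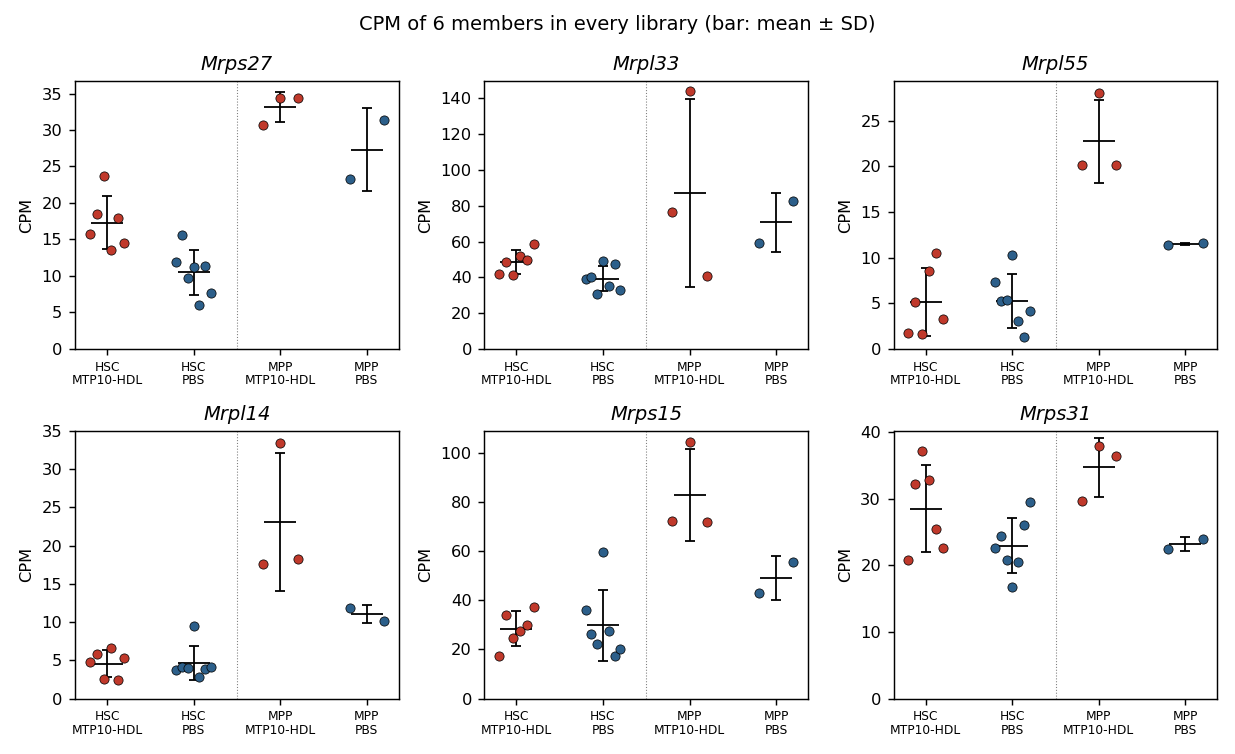
CPM of 6 members (Mrps27, Mrpl33, Mrpl55, Mrpl14, Mrps15 and Mrps31) in every library, with 1 point per library and bars for mean ± SD, for MTP10-HDL (red) left of PBS (blue) in HSCs and then in MPPs; kits differ between the cell types. Mrps27 averages 17.3 CPM in MTP10-HDL HSCs and 10.5 CPM in PBS HSCs, and Mrpl55 averages 22.8 CPM in MTP10-HDL MPPs and 11.5 CPM in PBS MPPs, where its groups do not overlap.

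The height of the MPP values rested largely on single libraries, most on MTP10-HDL 2 and also on PBS 2. MTP10-HDL 2 held the highest value of the 5 libraries for 74 of 77 members, and PBS 2 held the lowest for 55. Scores were 0.00, 0.62 and -0.14 in MTP10-HDL libraries 1, 2 and 3, against -0.37 and -0.10 in PBS libraries 2 and 3. The groups thus overlapped, with MTP10-HDL 3 below PBS 3. Without MTP10-HDL 2 the median log2 fold change was 0.17, against -0.01 over all genes, and 61 of 77 members were higher. The count at an unadjusted p under 0.05 (edgeR) was then 4, and it was 17 without MTP10-HDL 3, 2 without PBS 2 and 4 without PBS 3, where the lone PBS library is assumed to vary as the others do. As shares these were 5.19% of members against 3.04% of all genes without MTP10-HDL 2, 22.1% against 2.4% without MTP10-HDL 3, 2.6% against 1.26% without PBS 2 and 5.19% against 1.15% without PBS 3. The median was 0.48 without MTP10-HDL 1, 0.60 without MTP10-HDL 3, 0.29 without PBS 2 and 0.57 without PBS 3, and 0 members passed under any of these.

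**Figure D4:**
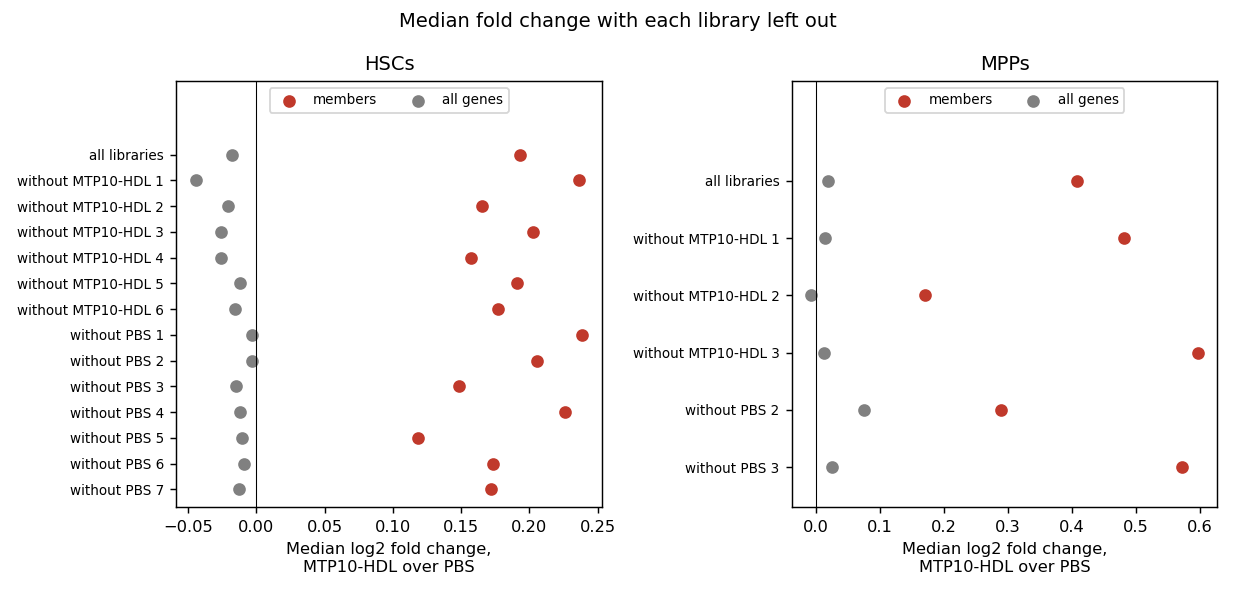
Median log2 fold change, MTP10-HDL over PBS (horizontal axis), of the members (red) and of all genes tested (grey), with all libraries and with each library left out in turn (rows), in HSCs and MPPs; the axes of the panels differ. The members' median stays between 0.12 and 0.24 in HSCs and between 0.17 and 0.60 in MPPs.

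Library MTP10-HDL 2 also stood apart for neighbouring gene groups. MTP10-HDL 2 scored 0.72 for cytosolic ribosomal proteins and 0.67 for nuclear-encoded respiratory chain subunits, while the other 4 MPP libraries lay between -0.51 and 0.14 and between -0.43 and -0.02. Fold changes of these groups were of the members' size, with a median of 0.38 for cytosolic ribosomal proteins (78 of 82 higher) and 0.48 for respiratory chain subunits (84 of 91 higher). In HSCs their medians were 0.15 (59 of 78 higher) and 0.17 (73 of 87 higher), beside 0.19 for the members. Of the RNAs that mitochondria make themselves, the ribosomal RNAs were highest in that library but did not set it apart. Their summed levels were 1338, 1958 and 1788 CPM in MTP10-HDL libraries 1, 2 and 3 and 734 and 1643 CPM in PBS libraries 2 and 3. They took 0.1385% to 0.1851% of MTP10-HDL MPP counts and 0.07339% and 0.165% of PBS MPP counts, from poly-A selected RNA. The mitochondrially encoded mRNAs were lowest in MTP10-HDL 2, with 28320, 18250 and 39980 CPM in MTP10-HDL libraries 1, 2 and 3 and 22280 and 26610 CPM in PBS libraries 2 and 3.

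Of 75 members tested in both cell types, 57 were higher in both, 16 were higher in MPPs only, 2 in HSCs only and 0 were lower in both. A joint fit over 24470 genes compared the responses of MPPs and HSCs directly. Of 77 members in this fit 0 passed a false discovery rate of 0.05 by edgeR, where 0.00409% of all genes (1 gene) passed. The difference, MPP minus HSC response, was above 0 for 67 members (87%, against 55.8% of all genes), with a median of 0.29 against 0.09 over all genes. At an unadjusted p under 0.05 (edgeR) 2 members had a larger response in MPPs (2.6%, against 1.19% of all genes).

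Those 2 were Mrps25, a small-subunit protein of mitochondria alone, and Mrpl19, with a bacterial counterpart. Mrps25 held 55.9, 89.4 and 37.2 CPM in MTP10-HDL MPPs and 35.7 and 29.4 CPM in PBS MPPs, and averaged 15.4 ± 4.20 CPM (SD, n = 6) in MTP10-HDL HSCs and 15.7 ± 2.72 CPM (n = 7) in PBS HSCs. Its difference was 0.95 (SE 0.42), and that of Mrpl19 0.86 (SE 0.39), followed by Mrpl41 at 0.94 (SE 0.52). These differences shrank to 0.58, 0.55 and 0.46 without MPP library MTP10-HDL 2. Without that library the median difference over members was -0.01, with 37 of 77 above 0, and without HSC library PBS 1 it was 0.17. Without MPP library PBS 2 it was 0.20, below the 0.31 of all genes, and without MPP library PBS 3 it was 0.37, against 0.12. The count of members at an unadjusted p under 0.05 (edgeR) became 0 without HSC MTP10-HDL 2 or 3 and without MPP MTP10-HDL 2. It was 1 without HSC MTP10-HDL 1, PBS 1 or PBS 2, and 3 without MPP MTP10-HDL 3. Shares of all genes were not computed for these omissions, so the counts cannot be set against the background. No count is given without MPP PBS 2 or without MPP PBS 3, where 1 PBS MPP library would be left.

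**Figure D5:**
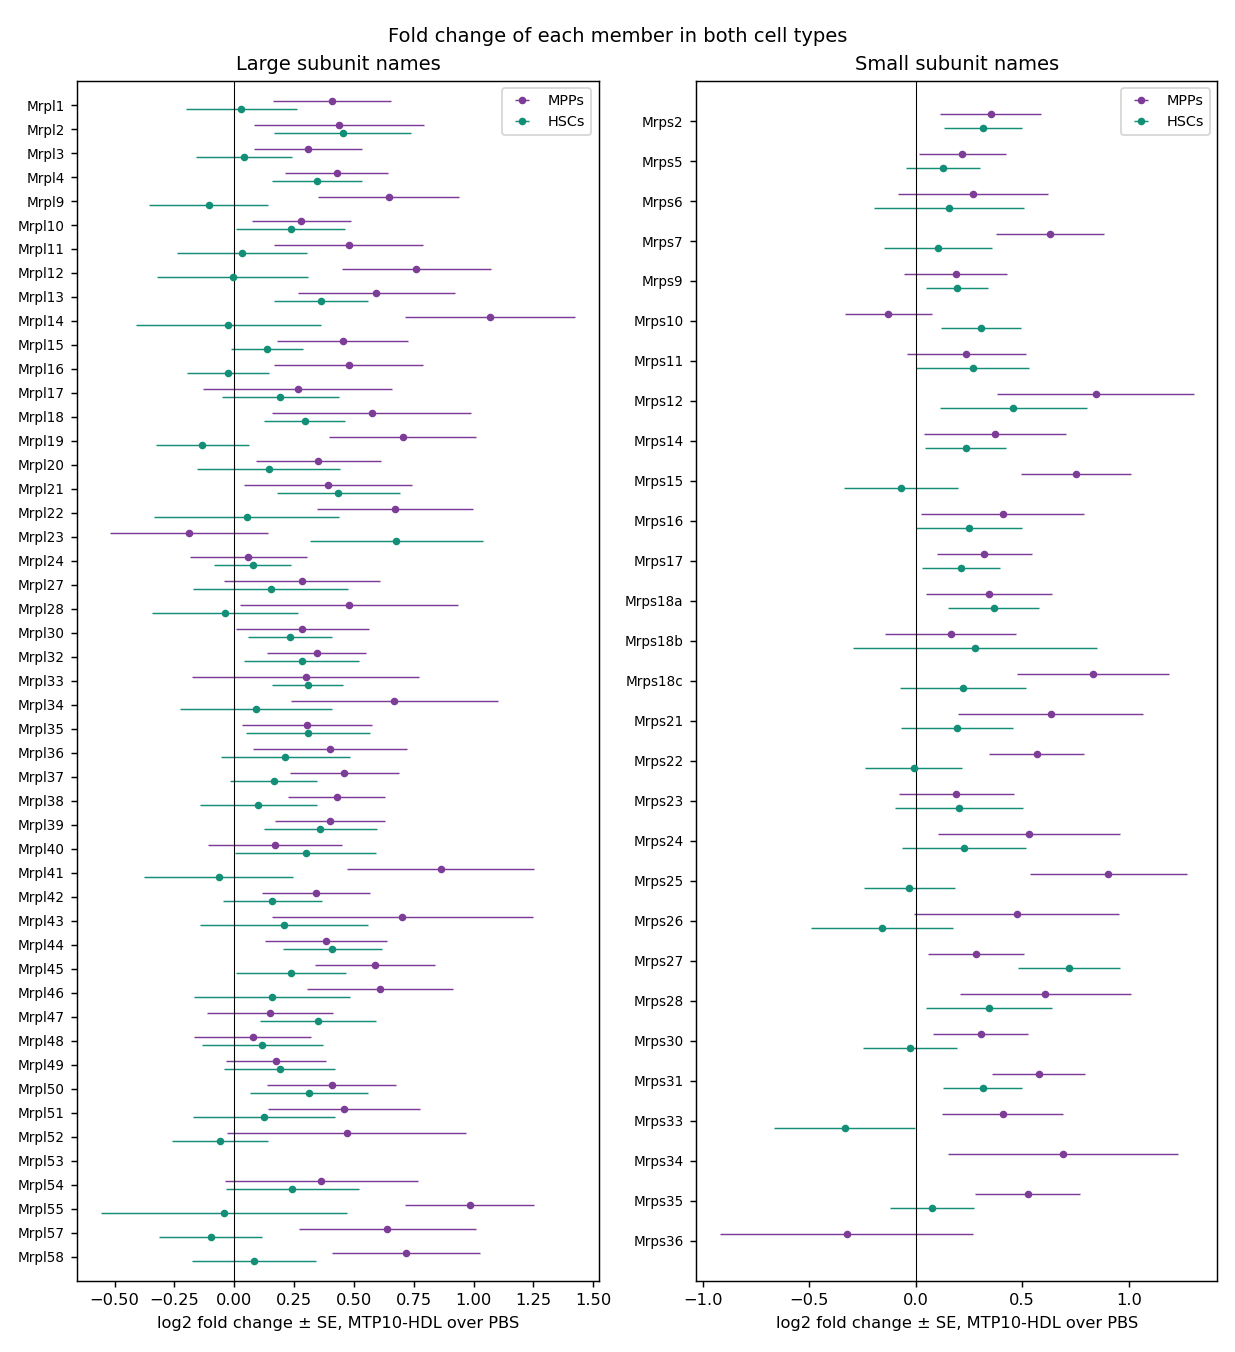
Log2 fold change, MTP10-HDL over PBS, with its SE for each member named for the large subunit (left) and the small subunit (right), in MPPs (purple, upper point) and HSCs (green, lower point). Most MPP points lie right of the HSC points, as for Mrpl55 (0.98 against -0.04), with Mrpl23 (-0.19 against 0.68) and Mrps27 (0.28 against 0.72) the other way round; members without a point were not tested.

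Some names do not match a protein's place. Mrps18a and Mrps30 are built into the large subunit despite their names. Mrps18a held 9.30, 20.5 and 22.8 CPM (lowest, median, highest) in MTP10-HDL HSCs against 11.9, 14.2 and 16.3 CPM in PBS HSCs, with log2 fold changes of 0.37 (SE 0.21) in HSCs and 0.34 (SE 0.30) in MPPs. Mrps30 had log2 fold changes of -0.03 (SE 0.22) in HSCs and 0.31 (SE 0.22) in MPPs. Mrps36 is now known as a component of the 2-oxoglutarate dehydrogenase complex, and with 141 counts over all HSC libraries it was not tested there.

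Mrpl53 and Mrps34 were almost without counts in HSCs, with 10 and 41 counts over 13 libraries, and were not tested. In MPPs Mrpl53 had 6 counts over 5 libraries, and Mrps34 averaged 4.54 ± 2.11 CPM (SD, n = 3) after MTP10-HDL and 2.82 ± 0.520 CPM (n = 2) after PBS, a log2 fold change of 0.69 (SE 0.54). How reads shared with overlapping genes were counted is not given in the sources used here. Other levels include Mrpl17, with 48.2, 80.3 and 105 CPM (lowest, median, highest) in MTP10-HDL HSCs and 43.2, 62.4 and 138 CPM in PBS HSCs, and Mrps14, with means of 48.3 CPM in MTP10-HDL HSCs and 41.1 CPM in PBS HSCs. In MPPs Mrpl12 held 80.2, 155 and 97.8 CPM after MTP10-HDL and 59.2 and 71.9 CPM after PBS, and Mrps9 held 72.3, 109 and 88.4 CPM after MTP10-HDL and 69.95 and 87.8 CPM after PBS.

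Fold changes were also set out by whether a member's promoter window held the ETS motif, with no test. In HSCs their medians were 0.19 (20 of 25 higher) with a match and 0.19 (32 of 42 higher) without. In MPPs they were 0.46 (25 of 25 higher) with a match and 0.38 (40 of 43 higher) without.

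Other parts of the mitochondrial translation machinery were considered next. Of 5 further subunits, 3 were higher in HSCs (median 0.14) and 4 in MPPs (median 0.32). Dap3, a GTP-binding small-subunit protein, averaged 47.5 ± 8.96 CPM (SD, n = 6) in MTP10-HDL HSCs and 43.2 ± 7.67 CPM (n = 7) in PBS HSCs, and had log2 fold changes of 0.14 (SE 0.16) in HSCs and 0.32 (SE 0.27) in MPPs. Aurkaip1, also of the small subunit, had 0.39 (SE 0.21) in HSCs and 0.73 (SE 0.36) in MPPs, and Gadd45gip1, of the large subunit, 0.37 (SE 0.40) in HSCs and 0.46 (SE 0.38) in MPPs. Without MTP10-HDL 2 the MPP values were 0.31 for Aurkaip1 and 0.07 for Gadd45gip1. Ptcd3, a pentatricopeptide repeat protein of the small subunit, was lower in both cell types, at -0.15 (SE 0.13) in HSCs and -0.14 (SE 0.21) in MPPs, with -0.09 in HSCs without MTP10-HDL 1. None of these passed the test.

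Assembly factors help the ribosomal RNAs fold and take up proteins. In HSCs 19 of 24 were higher (median 0.11) and 0 were higher at an unadjusted p under 0.05 by edgeR, against 4.36% of all genes. The pseudouridine synthase gene Trub2 was at 0.44 (SE 0.32), or 0.28 without PBS 4, and Mpv17l2 at 0.38 (SE 0.30), or 0.04 without MTP10-HDL 3. In MPPs 21 of 25 were higher (median 0.28), with 1 higher at an unadjusted p under 0.05 by edgeR (4%, against 2.17% of all genes). This was Gtpbp10, a GTPase of large-subunit maturation, at 20.7 ± 1.48 CPM (SD, n = 3) after MTP10-HDL and 11.8 ± 4.18 CPM (n = 2) after PBS, a log2 fold change of 0.81 (SE 0.30) that was 0.49 without PBS 3 and 1.21 without PBS 2.

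Of 15 translation factors 12 were higher in each cell type, with medians of 0.20 in HSCs and 0.25 in MPPs. Mtif3, which acts in initiation, averaged 14.4 ± 1.62 CPM (SD, n = 6) in MTP10-HDL HSCs and 9.79 ± 2.46 CPM (n = 7) in PBS HSCs, a log2 fold change of 0.56 (SE 0.22) with an adjusted p of 0.497 by edgeR. Gfm2, which acts in ribosome recycling, was lower in HSCs at -0.40 (SE 0.16), and did not pass either. In MPPs the elongation factor genes Tufm and Gfm1 were at 0.65 (SE 0.26) and 0.45 (SE 0.21), and Mtif3 at 0.06 (SE 0.30).

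Mitochondrial aminoacyl-tRNA synthetases, which charge the tRNAs, had a median of 0.01 in HSCs (11 of 20 higher) and 0.16 in MPPs (18 of 20 higher). Pars2 was at 0.67 (SE 0.31), or 0.43 without MTP10-HDL 2, and Iars2 at 0.23 (SE 0.15) in HSCs, and Yars2 at 0.68 (SE 0.24) in MPPs. Lars2 went the other way, with 1367 ± 497 CPM (SD, n = 3) in MTP10-HDL MPPs and 2824 ± 292 CPM (n = 2) in PBS MPPs, a log2 fold change of -1.05 (SE 0.34) that did not pass (edgeR adjusted p = 0.676). Ribosomal RNA took 0.508% to 0.915% of counts in MTP10-HDL MPP libraries and 1.26% and 1.47% in PBS MPP libraries, and its part in the Lars2 values was not tested.

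Genes for transcription of mitochondrial DNA and for handling its RNA had medians of 0.10 in HSCs (15 of 20 higher) and 0.24 in MPPs (18 of 20 higher). In HSCs the RNA-binding protein gene Fastk was at 0.56 (SE 0.23) and the transcription elongation factor gene Tefm at 0.51 (SE 0.23). In MPPs Fastkd3 was at 0.62 (SE 0.28), or 0.34 without PBS 3 and 0.97 without PBS 2, and Lrpprc, which stabilises mitochondrial mRNAs, averaged 121 ± 5.82 CPM (SD, n = 3) after MTP10-HDL and 85.9 ± 14.3 CPM (n = 2) after PBS, a log2 fold change of 0.49 (SE 0.20). None passed the test.

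Regulators of nuclear genes for mitochondria showed no common direction, with medians of 0.04 in HSCs (5 of 9 higher) and -0.02 in MPPs (4 of 9 higher). Yy1 averaged 124 ± 13.0 CPM (SD, n = 6) in MTP10-HDL HSCs and 99.9 ± 17.8 CPM (n = 7) in PBS HSCs, a log2 fold change of 0.31 (SE 0.13), and stood at -0.03 (SE 0.18) in MPPs. Gabpb1, a subunit of the ETS factor GABP, was at 0.04 (SE 0.20) in HSCs and 0.12 (SE 0.19) in MPPs. The coactivator gene Ppargc1a was at -0.44 (SE 0.33) in HSCs, or -0.24 without PBS 6 and -0.69 without MTP10-HDL 2, and Pprc1 at -0.25 (SE 0.26) in MPPs, which without PBS 2 became 0.17.

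The templates of mitochondrial translation were considered last, and their responses in HSCs and MPPs were not tested against each other. Of the 13 mitochondrially encoded mRNAs 7 were tested, and mt-Co2, mt-Co3, mt-Atp6, mt-Atp8 and mt-Nd4l are listed at 0 in both tables. In HSCs 6 of 7 were lower (median -0.22), with mt-Nd2 at 337 ± 81.7 CPM (SD, n = 6) after MTP10-HDL and 450 ± 185 CPM (n = 7) after PBS, a log2 fold change of -0.42 (SE 0.22), and mt-Nd5 at -0.22 (SE 0.17). Without PBS 1 these were at -0.17 and -0.05. In MPPs 7 of 7 were higher (median 0.25), with mt-Nd1 at 0.43 (SE 0.35) and mt-Nd5 at 0.41 (SE 0.37), which without MTP10-HDL 3 were at 0.10 and 0.02. The ribosomal RNAs mt-Rnr1 and mt-Rnr2 were at -0.13 (SE 0.25) and -0.21 (SE 0.22) in HSCs, and at 0.48 (SE 0.32) and 0.52 (SE 0.39) in MPPs. They took at least 12.42% of counts in every HSC library but at most 0.1851% in any MPP library, whose RNA was poly-A selected. In HSCs mt-Rnr1 was at 0.05 without PBS 1 and at 0.01 without MTP10-HDL 6, where mt-Rnr2 was at -0.04. In MPPs they were at 0.08 and 0.02 without PBS 2, and at 1.01 and 1.29 without PBS 3. None of these values passed the test.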

How the data were processed

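The authors deposited raw read counts per Ensembl gene for both cell types. Per the labels' protocols, HSC RNA was amplified as cDNA and read as single 50-base reads, while MPP RNA was poly-A selected with insect carrier RNA and a directional kit. Per the submitters' processing notes, mm10 was the build, with STAR 2.5.2b and CASAVA 1.8.2 named for HSCs and STAR 2.7.2a, DESeq2 1.24 and R 3.6.1 for MPPs. Strand setting, annotation and counting tool: not given in the sources used here.

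Each table was analysed in R 4.3.3 with edgeR 4.0.16: TMM scaling, default filterByExpr, quasi-likelihood F test, Benjamini-Hochberg over all genes tested, false discovery rate 0.05. The joint fit used 4 group means. Scores use log2 CPM with a prior count of 2. Alternatives were DESeq2 1.42.0, limma 3.58.1 voom, RLE scaling, no filter, a minimum of 10 CPM, omitted libraries, removed immunoglobulin and mitochondrial ribosomal RNA counts, and a replicate block. Scripts were tested on simulated data.

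Members and lists were chosen with earlier results of these data known. The cytosolic ribosomal protein and respiratory chain lists were added after seeing the data. Of 173 listed genes 172 have a row. Named members are, per cell type and direction, the 5 of smallest p (none passed), the 3 of smallest p for the difference, the highest and lowest CPM per subunit, 3 whose place differs from their name, and 2 per partner list.

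One HSC PBS sample is numbered 8 in the labels and the table numbers PBS columns 1 to 7, under an unexplained ESC prefix, so PBS columns entered as replicates of the group and keep the numbers of the table.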

Additional observations from a re-analysis of the deposited data

Results flagged for a closer look

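Of 50 sets of values checked for an outlying library, 4 had a lowest or highest library that stood apart by Dixon's criterion, where chance gives about 1 in 20 sets. In PBS HSCs, Mrpl19 stood at 65.9 CPM in PBS 4, above the next highest PBS library at 38.9 CPM. Mrpl14 stood at 9.54 CPM in the same library, above the next at 4.18 CPM. Mrpl9 stood at 41.9 CPM in PBS 1, above the next at 28.4 CPM. The summed level of all members was lowest in MTP10-HDL HSC library 1, at 1469 CPM, with the next lowest MTP10-HDL library at 1816 CPM. Groups of 3 and 2 MPP libraries are too small for this check.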

How the results depend on the processing

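No member passed a false discovery rate of 0.05 in either cell type, or in the test of the difference, under any alternative run. Median log2 fold changes stayed above 0, at 0.15 to 0.24 in HSCs except without PBS 5 (0.12) and without PBS 5 and 7 (0.09), and at 0.17 to 0.60 in MPPs. DESeq2 gave medians of 0.17 in HSCs and 0.39 in MPPs, where its all-gene medians, taken without the low-count filter, were -0.23 and -0.05. Without the filter edgeR had 25 MPP members higher at an unadjusted p under 0.05 (32.1%, against 2.71% of all genes). With the filter there were 10 (13%, against 2.17%). Over all genes 44 (HSCs) and 345 (MPPs) passed without the filter, against 0 with it. DESeq2 called 108 and 163 genes over all. The HSC score difference of 0.203 was -0.0668 among libraries with few detected genes and 0.407 among those in neither technical group, and the cause was not tested. Of 888 values of named genes under alternatives 879 kept their direction, and 9 did not, all when a library was left out: in HSCs Mrpl9 ranged from -0.22 to 0.060, Mrps26 from -0.35 to 0.038, Mrpl19 from -0.23 to 0.036, Mrpl57 from -0.20 to 0.015 and mt-Rnr1 from -0.26 to 0.052, and in MPPs Pprc1 from -0.58 to 0.17. Without 1 library, 54 to 68 HSC members and 61 to 74 MPP members were higher. Samples of the same number did not all deviate together from their group means (correlations of -0.19 to 0.19 in HSCs, -0.17 and -0.03 in MPPs). This cannot decide whether samples of equal number were handled together. With 2 PBS libraries the deviations in PBS MPPs mirror each other, so that the check holds little information there. For a replicate block by library number, HSC PBS 7 and MPP MTP10-HDL 1 have no library of equal number in the other group. Neither adds to the comparison of treatments there, which in MPPs rests on libraries 2 and 3 of each group. With this block, 61 HSC members (median 0.20) and 74 MPP members (median 0.43) had fold changes above 0. In MPPs 2 of these (2.6%, against 0.576% of all genes) reached an unadjusted p under 0.05 by edgeR, and 43 MPP genes passed over all. The cause of the few counts of Mrpl53, Mrps34 and Mrps36 was not tested, and 2 PBS libraries limit the MPP comparison.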
